A study of Mus musculus with 12 samples.

Results

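Blood cells leave transcripts of their own in a liver preparation, and 9 genes that mark them were followed in hepatocyte RNA: the erythroid genes *Alas2*, *Hba-a1*, *Hbb-b1*, *Hbb-b2* and *Slc4a1*, and the neutrophil genes *S100a8*, *S100a9*, *Ngp* and *Camp*. They were chosen by gene symbol, and every probe annotated to a symbol was taken if its detection p was at most 0.05 on 1 or more arrays. By this rule 6 of the 9 symbols were found, with 1 probe each. *Hbb-b1*, *Hbb-b2* and *Ngp* are carried by no annotated probe and were not analysed here. The adult beta-globins were read through the symbols that the annotation does carry, *Hbb-bs* with 6 probes and *Hbb-bt* with 4, which are the beta-globin pair of the C57BL/6 reference genome. The description below therefore rests on 16 probes of 8 genes, out of 20561 detected probes that name 10838 genes.

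The mice were of a C57BL/6 and 129Sv cross, 2.5 to 4.5 months old, and homozygous for floxed (Cre-excisable) *Gata4* and *Gata6* alleles in both groups. One group of 6 samples was labelled AAV-Cre: adeno-associated virus of serotype 8 given intravenously 2 weeks before harvest, with Cre under the thyroxine-binding globulin (Tbg) promoter, which is active in hepatocytes. The other 6 samples, labelled AAV-GFP, came from the same floxed mice given the same vector with green fluorescent protein in place of Cre, and here act as control. In both groups hepatocytes were freed by enzymatic perfusion, collected through a Percoll density gradient and treated with ACK buffer, a solution that bursts red cells. Blood cells are not targeted by the Tbg promoter, so neither vector was designed to act in the cells for which the member genes are known. The labels do not say that each sample is a separate animal, and p-values then measure the spread between these samples only.

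Hemoglobin is a tetramer of alpha-globin and beta-globin chains, each holding a heme. Red cell precursors make it under the control of the erythroid factor GATA1, and young red cells, the reticulocytes, still carry globin mRNA after the nucleus has gone. *Alas2* encodes the erythroid form of the first enzyme of heme synthesis, and *Slc4a1* the band 3 anion exchanger of the red cell membrane. *S100a8* and *S100a9* encode the paired subunits of calprotectin, the most abundant cytosolic protein of neutrophils, while *Camp* and *Ngp* encode proteins of neutrophil granules.

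All values below are log2 of the quantile-normalised signal, called level here. Background was left in the exported signal, and the lowest detected level of an array lay between 8.16 and 8.28, so values near 8 carry no order. Median exported signals of the arrays ranged from 215 to 288, and between 14318 and 16381 probes were detected per array. Of the hepatocyte list, 7 genes were measured and 5 were detected on all 12 arrays (*Alb*, *Hnf4a*, *F10*, *Apob* and *Serpina1a*). Of the excised genes, *Gata4* had a level of 8.06 ± 0.27 on arrays labelled AAV-Cre and 7.87 ± 0.14 on AAV-GFP arrays (SD, n = 6 each), which is background. The brighter *Gata6* probe was higher on arrays labelled AAV-Cre, at 11.59 ± 0.37 against 9.88 ± 0.23 on AAV-GFP arrays (SD, n = 6 each; log2 difference 1.71, limma adjusted p = 0.000377). A dimmer *Gata6* probe, detected on 4 arrays labelled AAV-Cre and on 0 AAV-GFP arrays, differed by 0.26 in the same direction (limma adjusted p = 0.80). Whether the probes lie inside or outside the excised exons is unknown here, so they do not check the labels. AAV-Cre replicate 3 stood apart from the other 11 arrays in sex-linked genes, which the labels do not describe: *Xist*, the transcript of the inactive X, read 13.31 on it and 7.70 to 7.95 on the others, and the Y-linked *Eif2s3y* read 7.75 on it and 11.53 to 11.89 on the others. Ranges and differences of the members that rest on this array are also given without it. Correlations are given without it and a further array together.

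The upstream sequences of the globin genes, which varied together over the arrays, and of *Alas2*, which did not follow them, are shown as background. Any part of these sequences in the levels on the arrays was not tested. They are RefSeq sequences of the mouse build GRCm38.p6, 250 bases that end just before the transcription start, 5′ to 3′ on the strand of the gene. *Hba-a1* lies at chr11:32283422-32283671 (plus strand), *Hbb-bs* at chr7:103827929-103828178 (minus strand), *Hbb-bt* at chr7:103813924-103814173 (minus strand) and *Alas2* at chrX:150547167-150547416 (plus strand). Capitals mark a GATA motif (AGATAA, or the same with T first, G last, or both), a CACCC motif or a CCAAT motif, each on either strand.
Hba-a1: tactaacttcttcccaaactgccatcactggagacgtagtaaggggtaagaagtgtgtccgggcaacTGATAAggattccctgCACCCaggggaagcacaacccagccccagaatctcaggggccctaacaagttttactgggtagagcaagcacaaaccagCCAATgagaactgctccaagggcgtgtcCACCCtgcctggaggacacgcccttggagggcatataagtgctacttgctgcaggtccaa
Hbb-bs: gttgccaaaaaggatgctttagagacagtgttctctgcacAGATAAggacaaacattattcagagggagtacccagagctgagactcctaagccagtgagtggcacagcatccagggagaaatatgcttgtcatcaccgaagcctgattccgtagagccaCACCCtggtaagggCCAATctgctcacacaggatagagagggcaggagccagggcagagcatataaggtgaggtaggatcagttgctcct
Hbb-bt: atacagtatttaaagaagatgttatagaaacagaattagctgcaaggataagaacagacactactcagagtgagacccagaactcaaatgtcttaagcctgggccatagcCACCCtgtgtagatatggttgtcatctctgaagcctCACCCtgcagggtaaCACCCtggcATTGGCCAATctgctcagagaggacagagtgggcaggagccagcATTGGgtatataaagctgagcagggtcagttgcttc
Alas2: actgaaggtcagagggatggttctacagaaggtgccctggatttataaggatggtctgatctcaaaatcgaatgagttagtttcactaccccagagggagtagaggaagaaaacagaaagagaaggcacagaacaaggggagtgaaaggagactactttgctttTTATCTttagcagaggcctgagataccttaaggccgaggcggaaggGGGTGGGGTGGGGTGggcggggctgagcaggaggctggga

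Upstream of *Hba-a1* all 3 kinds of motif were found, with the GATA motif from -183 and CCAAT from -88. *Hbb-bs* held all 3 as well, with GATA from -210 and CCAAT from -76. In *Hbb-bt* there were 3 CACCC and 3 CCAAT matches and no match to any of these GATA spellings in this window. *Alas2* held 1 GATA match, on the opposite strand from -86, 3 CACCC matches that run into each other, and no CCAAT. Of all 32851 upstream windows of the same length, 26.5% held a GATA motif, 52% held CACCC, 33.8% held CCAAT and 3.92% held all 3, so that none of these matches is rare by itself. The window of *Hba-a1* was identical to that of its copy *Hba-a2* at 247 of 247 bases once shifted by 3, whereas *Hbb-bs* and *Hbb-bt* matched at 127 of 249 (51%). Each pair was compared at its best single shift without gaps. Inserted or lost bases were thus not allowed for, and 51% can understate how alike the *Hbb-bs* and *Hbb-bt* windows are. *Hbb-bs* and *Hbb-bt* are neighbours on chromosome 7, and *S100a8* and *S100a9* are neighbours on chromosome 3. Alpha-globin copies and the beta-globin pair are near-identical in their transcripts, and their probes cannot be assumed to tell the copies apart.

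Globin transcripts were present on all 12 arrays and varied between single arrays far more than between the groups. *Hba-a1* (ILMN_1212702), an adult alpha-globin, had levels of 9.39, 9.38, 12.66, 9.51, 10.12 and 9.52 on AAV-Cre replicates 1 to 6, and of 8.89, 8.52, 8.96, 11.27, 8.76 and 8.33 on AAV-GFP replicates 1 to 6. One array of each group, AAV-Cre replicate 3 and AAV-GFP replicate 4, was far above its group, and because of the second the groups overlapped. The highest and the lowest array differed 20.1-fold, and 46.7-fold once background had been removed by the normexp method. With AAV-Cre replicate 3 left out the range was 7.69-fold, or 16.99-fold after background removal, with AAV-GFP replicate 4 as the highest array. A wider range was shown by 0.238% of all detected probes over the 12 arrays and by 0.588% without AAV-Cre replicate 3. In bulk samples such as these, fewer cells of a type and less RNA per cell cannot be told apart.

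The beta-globins followed nearly the same order of arrays. The most intense *Hbb-bs* probe (ILMN_1244316) had a lowest, median and highest level of 9.67, 10.01 and 13.27 on arrays labelled AAV-Cre, and of 8.37, 8.91 and 11.76 on AAV-GFP arrays. For *Hbb-bt* (ILMN_1236718) the corresponding levels were 9.60, 9.94 and 13.18 on arrays labelled AAV-Cre, and 8.31, 8.97 and 11.73 on AAV-GFP arrays. All 11 globin probes were highest on AAV-Cre replicate 3 and second on AAV-GFP replicate 4, and 10 of the 11 were lowest on AAV-GFP replicate 6. For comparison, AAV-Cre replicate 3 was the highest array for 8.80% of all detected probes, and AAV-GFP replicate 4 for 8.99%. The 7 globin probes detected on all 12 arrays spanned 15.4-fold to 29.9-fold between highest and lowest array, or 34.2-fold to 69.8-fold after background removal. On the other 11 arrays they spanned 5.35-fold to 10.7-fold, or 11.1-fold to 24.7-fold after background removal, and all 7 were highest on AAV-GFP replicate 4. The other 4 were dimmer: *Hbb-bs* ILMN_1255462 and *Hbb-bt* ILMN_1239117 were detected on 11 arrays, *Hbb-bs* ILMN_2544056 on 8 and *Hbb-bt* ILMN_1235372 on 4.

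**Figure D1:**
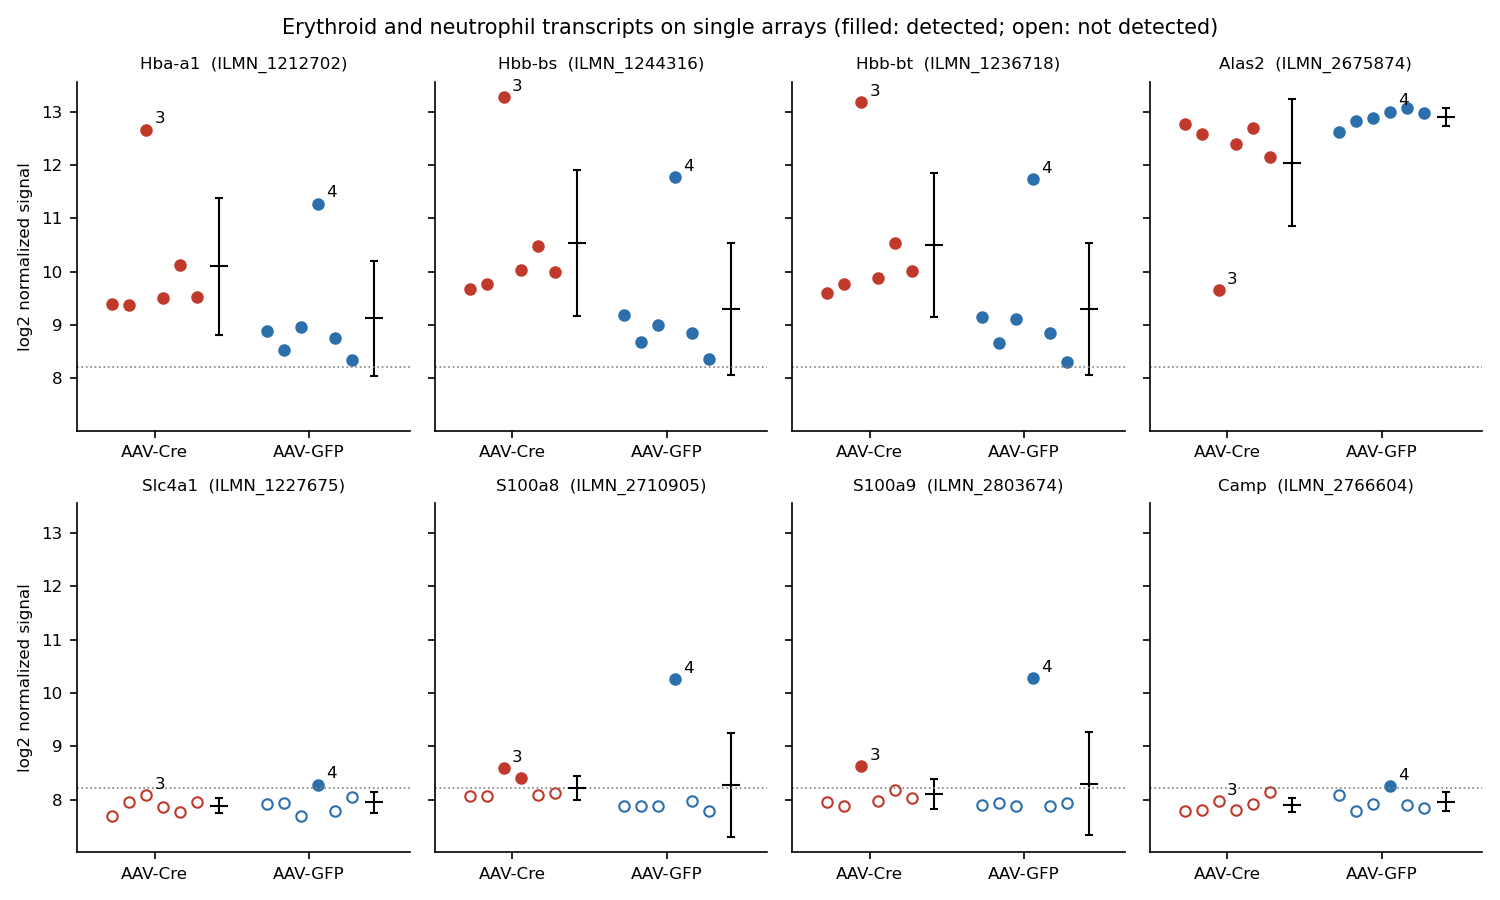
Log2 normalised signal (vertical axis) of the most intense probe of each of the 8 genes on the 6 AAV-Cre and the 6 AAV-GFP arrays, replicates 1 to 6 from left to right, with mean and SD in black and the mean lowest detected level of 8.22 as a dotted line. The globins are high on AAV-Cre replicate 3 and AAV-GFP replicate 4, *Alas2* is low on AAV-Cre replicate 3 alone, and *S100a8* and *S100a9* are highest on AAV-GFP replicate 4.

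Alpha-globin and beta-globin kept nearly 1 ratio to each other across this range. Probes differ in brightness, so such a ratio is read only by how it varies between arrays. After background removal the level of *Hbb-bs* minus that of *Hba-a1* stayed between 0.05 and 0.67 on the 12 arrays (SD 0.21), and that of *Hbb-bt* minus *Hba-a1* between -0.05 and 0.62 (SD 0.20). On the 2 arrays with the most globin these differences were close, at 0.62 on AAV-Cre replicate 3 and 0.52 on AAV-GFP replicate 4 for *Hbb-bs*, and 0.53 and 0.49 on the same arrays for *Hbb-bt*. Over the 12 arrays *Hba-a1* correlated with *Hbb-bs* at Pearson r = 0.996 and Spearman rho = 0.979, and with *Hbb-bt* at r = 0.997 and rho = 0.986. Each had a permutation p of 1e-05, the smallest that 100000 resamples can give, and an adjusted p of 9.33e-05 over the 28 pairs of member genes. Without AAV-Cre replicate 3 and AAV-GFP replicate 4, the arrays farthest from the median, r was still 0.986 for *Hbb-bs* and 0.993 for *Hbb-bt*. Within the 6 arrays labelled AAV-Cre r was 0.998 for both (exact permutation p = 0.00556 for *Hbb-bs* and 0.00278 for *Hbb-bt*), and within the 6 AAV-GFP arrays it was 0.997 and 0.998 (exact permutation p = 0.00278 for each).

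The globin levels were then compared between the groups, to ask whether hepatocyte preparations of AAV-Cre mice held more or less of these transcripts. All 11 globin probes averaged higher on arrays labelled AAV-Cre, by 0.27 to 1.23 (median 0.91, against 0.002 over all detected probes). The 95% interval of each difference ran from a negative to a positive value. *Hba-a1* averaged 10.10 ± 1.29 on arrays labelled AAV-Cre and 9.12 ± 1.08 on AAV-GFP arrays (SD, n = 6 each), a log2 difference of 0.97 with SE 0.59 and a 95% interval of -0.30 to 2.25 (limma adjusted p = 1.00, exact permutation p = 0.208). *Hbb-bs* ILMN_1244316 differed by 1.23 (SE 0.65, interval -0.17 to 2.63, limma adjusted p = 1.00, exact permutation p = 0.134). Over the globin probes the exact two-sided permutation p ran from 0.128 to 0.593, where 0.00216 is the smallest that 924 assignments of the arrays can give.

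With limma, 0 of the 16 probes of all member genes passed an adjusted p under 0.05 (background: 34 of 20561 probes, 0.165%), and 0 passed at the looser 0.25 (background 0.54%). At an unadjusted limma p under 0.05 there were also 0, and the exact permutation p was under 0.05 for 1, *Alas2* (background 5.18%). The groups did not overlap for 0 of the 16 probes (background 0.501%).

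A pattern appeared among the remaining 5 arrays of each group once AAV-Cre replicate 3 and AAV-GFP replicate 4 were set aside. Both arrays were picked for their globin level after the data were seen, so the following is a description of the other 10. Leaving out the 2 arrays highest for globin narrows the spread of the globin probes by construction. The background shares are over all detected probes, for which these arrays were not picked. Neither the adjusted p-values nor the background shares below are therefore a test of the groups. *Hba-a1* then lay between 9.38 and 10.12 on the 5 arrays labelled AAV-Cre and between 8.33 and 8.96 on the 5 AAV-GFP arrays, with no overlap. The same held for *Hbb-bs* ILMN_1244316, at 9.67 to 10.48 on arrays labelled AAV-Cre and 8.37 to 9.18 on AAV-GFP arrays. Of the 11 globin probes, 8 had all 5 remaining AAV-Cre arrays above all 5 remaining AAV-GFP arrays (background 0.404% of detected probes), among them all 7 that were detected on every array. Fitted on these 10 arrays, 3 probes of *Hbb-bs* passed limma's threshold: ILMN_1223244 (log2 difference 0.92), ILMN_1229203 (0.86) and ILMN_1244316 (1.18), each with an adjusted p of 0.0264 (background 0.0973%). *Hba-a1* (0.89, adjusted p = 0.0769) and *Hbb-bt* ILMN_1236718 (1.15, adjusted p = 0.0663) did not. Leaving out only 1 of the 2 arrays gave 0 called probes: without AAV-Cre replicate 3 the globin differences were -0.02 to 0.69, and without AAV-GFP replicate 4 they were 0.32 to 1.72. The *Hba-a1* difference was 0.46 without AAV-Cre replicate 3 and 1.40 without AAV-GFP replicate 4.

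**Figure D2:**
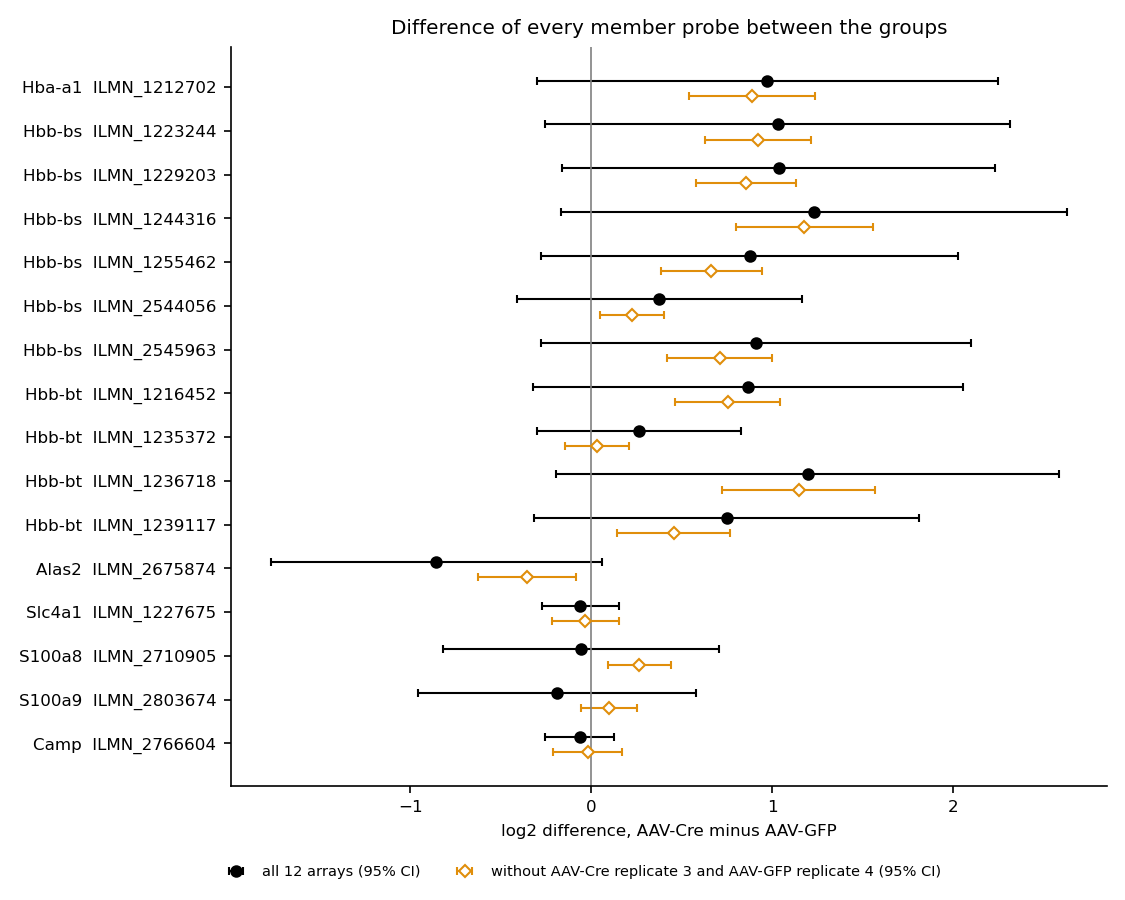
Log2 difference of AAV-Cre minus AAV-GFP (horizontal axis) for each of the 16 probes, from all 12 arrays and from the 10 arrays without AAV-Cre replicate 3 and AAV-GFP replicate 4, with limma's 95% intervals. With all arrays every interval includes 0, and the globin intervals narrow to the right of 0 on the 10 arrays for all but *Hbb-bt* ILMN_1235372. The arrays left out were picked for their globin level, so the narrower intervals are not a test.

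*Alas2* did not follow the globins, so a common label of erythroid transcripts did not describe it on these arrays. Its probe (ILMN_2675874) was bright and detected on all 12 arrays, with levels of 12.76, 12.59, 9.65, 12.39, 12.69 and 12.16 on AAV-Cre replicates 1 to 6, and of 12.61, 12.83, 12.89, 13, 13.07 and 12.97 on AAV-GFP replicates 1 to 6. The array with the most globin, AAV-Cre replicate 3, was the lowest for *Alas2*, and 11 of the 12 arrays lay within 1 unit of each other. AAV-GFP replicate 4, second for globin, read 13, second of the 12 arrays also for *Alas2* but within the range of the other AAV-GFP arrays. *Alas2* on AAV-Cre replicate 3 was 10.2-fold below AAV-GFP replicate 4, while *Hba-a1* was 2.62-fold above it. The level of *Alas2* minus that of *Hba-a1*, after background removal, thus ran from -3.36 on AAV-Cre replicate 3 to 5.86 on AAV-GFP replicate 6, and without AAV-Cre replicate 3 its lowest value was 1.81, on AAV-GFP replicate 4. The correlation of *Alas2* with *Hba-a1* was r = -0.758 over 12 arrays (rho = -0.503, permutation p = 0.0317, adjusted p = 0.0887), and it came to -0.049 without AAV-Cre replicates 3 and 6, so the relation rested on those arrays. With normexp background correction its r was -0.725 (adjusted p = 0.0425).

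Between the groups *Alas2* averaged 12.04 ± 1.19 on arrays labelled AAV-Cre and 12.90 ± 0.16 on AAV-GFP arrays (SD, n = 6 each). The log2 difference was -0.86 (SE 0.43, 95% interval -1.77 to 0.06, limma adjusted p = 1.00), while the exact permutation test of this single probe gave p = 0.00866. Without AAV-Cre replicate 3 the difference was -0.38 (limma adjusted p = 0.583, exact permutation p = 0.0130), with the other 5 arrays labelled AAV-Cre at 12.16 to 12.76. Of the other heme synthesis enzymes 6 were measured and 0 were called in either direction (median difference 0.07). *Alas1*, the form of the first enzyme that hepatocytes use, read 15.38 to 16.12 on arrays labelled AAV-Cre and 15.13 to 16.09 on AAV-GFP arrays, close to the highest signal of any detected probe (16.13), so no order of arrays is read from it.

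The genes most like *Alas2* over the arrays were named next, as the 10 with the highest Pearson r among 8555 other named genes detected on at least 6 arrays. They had r of 0.923 to 0.967 and were all lowest on AAV-Cre replicate 3. In order of likeness they were *Cyp4a12a*, *Cyp2d9*, *Gstp1*, *Eif2s3y*, *C6*, *Txnl4a*, *Cyp7b1*, *Ttc39c*, *C9* and *Cyp2f2*. *Cyp4a12a*, *Cyp2d9* and *Cyp7b1* encode cytochrome P450 enzymes known to be more abundant in male than in female mouse liver, and *Eif2s3y* is a gene of the Y chromosome. *Cyp4a12a* read 7.89 on AAV-Cre replicate 3 and up to 16.11 on the other arrays. On the other 11 arrays *Cyp4a12a*, *Cyp2d9*, *Gstp1* and *Cyp2f2* were close to the highest signal of any detected probe (16.13), where differences between arrays are compressed. *Cyp7b1* was likewise close to it on 10 arrays and *C9* on 5. Without AAV-Cre replicates 3 and 6, the 2 arrays farthest from the median of *Alas2*, 9 of the 10 had r of 0.363 or less, so their likeness rested on those arrays, and *Txnl4a*, a splicing factor subunit, had r = 0.80. *Txnl4a* was not among the 10 nearest genes when arrays were scaled to a common median instead. Whether the sex of the animal has a part in the *Alas2* level was not tested, as no other array had this sex-linked pattern.

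*Hba-a1* had other genes at its side. Like *S100a8* below and *Alas2* above, it was taken as a reference by itself after the values were seen. Its 10 nearest were *Ube2e2*, *Cdkal1*, *Nbdy*, *Itpr2*, *Hamp2*, *Slc13a3*, *Kifap3*, *Bhlhb9*, *Acot12* and *Fas* (r from 0.804 to 0.888), all highest on AAV-Cre replicate 3. None of them was on the list of erythroid genes. AAV-Cre replicate 3 is also the array that stood apart in sex-linked genes, and any part of sex in these levels was not tested. *Hamp2*, a mouse copy of the iron hormone hepcidin, had the widest range of these, from 10.39 on AAV-Cre replicate 2 to 14.85 on AAV-Cre replicate 3, with 13.01 on AAV-GFP replicate 4. When AAV-Cre replicate 3 and AAV-GFP replicate 4 were left out, the r of these 10 genes ran from 0.224 to 0.75. *Ube2e2*, the first of them, then had r = 0.243. The highest were *Itpr2*, an intracellular calcium channel (r = 0.75), and *Cdkal1*, a tRNA-modifying enzyme (r = 0.67). With median scaling *Itpr2* was not among the 10 nearest genes and *Cdkal1* was. With the mean of the erythroid members as reference, *Mcm6*, *Pak1ip1* and *Lhpp* were among the 10 nearest genes, and all 3 were highest on AAV-GFP replicate 4.

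The mean level of the other erythroid genes varied little over the arrays, while single genes of the list varied more. Of 51 symbols listed, 19 had a detected probe, 0 were called in either direction, 13 were above 0 and 6 below (median difference 0.04). Their mean level lay between 9.42 and 9.50 on arrays labelled AAV-Cre and between 9.38 and 9.53 on AAV-GFP arrays. Over the 12 arrays *Tfrc* ran from 9.91 to 11.99 and *Aqp1* from 9.61 to 11.73, so the mean does not describe each gene. Only 2 of the 19 were highest on AAV-Cre replicate 3, *Gypc* and *Mkrn1*, and 1 on AAV-GFP replicate 4, *Car1*. *Gypc*, glycophorin C of the red cell membrane, read 9.18 to 10.04 on arrays labelled AAV-Cre and 8.65 to 9.64 on AAV-GFP arrays (difference 0.68, adjusted p = 0.464). Its level was 10.04 on AAV-Cre replicate 6 as well as on AAV-Cre replicate 3. On AAV-GFP replicate 4, second for globin, *Gypc* was second lowest, at 8.72. *Klf1*, detected on all 12 arrays, was lowest on AAV-GFP replicate 4 (8.31) and highest on AAV-Cre replicate 2 (9.62), with 8.49 on AAV-Cre replicate 3. *Car1*, the red cell carbonic anhydrase that other tissues also use, read 8.39 to 9.27 on arrays labelled AAV-Cre and 9.20 to 10.28 on AAV-GFP arrays (difference -0.81, adjusted p = 0.240), with its lowest level on AAV-Cre replicate 3. *Ank1* and *Sptb*, which encode parts of the red cell skeleton, were at background on nearly every array (detected on 1 and 2).

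*Slc4a1* was itself at background. Its probe (ILMN_1227675) was detected on 1 array, AAV-GFP replicate 4, at 8.28, and all other levels lay between 7.70 and 8.08. The groups averaged 7.89 ± 0.14 on arrays labelled AAV-Cre and 7.95 ± 0.20 on AAV-GFP arrays (SD, n = 6 each; difference -0.06, limma adjusted p = 1.00). A 46.7-fold range of *Hba-a1* was thus not accompanied by a detectable *Slc4a1* signal on AAV-Cre replicate 3.

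Neutrophil transcripts separated the 2 arrays that were rich in globin. *S100a8* (ILMN_2710905) had levels of 8.08, 8.06, 8.59, 8.41, 8.09 and 8.12 on AAV-Cre replicates 1 to 6, and of 7.88, 7.89, 7.89, 10.26, 7.98 and 7.79 on AAV-GFP replicates 1 to 6. It was detected on 3 arrays, AAV-Cre replicates 3 and 4 and AAV-GFP replicate 4. *S100a9* (ILMN_2803674) had a lowest, median and highest level of 7.87, 8.00 and 8.64 on arrays labelled AAV-Cre and of 7.88, 7.91 and 10.27 on AAV-GFP arrays, and was detected on 2, AAV-Cre replicate 3 and AAV-GFP replicate 4. AAV-GFP replicate 4 was at least 3.96-fold for *S100a8* and at least 3.99-fold for *S100a9* above the arrays on which the probe was not detected. Each bound sets this array against the highest of the undetected arrays, taken at the lowest detected signal or at the probe's own signal, whichever was higher.

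The same 2 arrays were in the opposite order for globins and for calprotectin. AAV-Cre replicate 3 was 2.62-fold above AAV-GFP replicate 4 for *Hba-a1* and 2.83-fold above it for *Hbb-bs* ILMN_1244316, but 3.18-fold below it for *S100a8* and 3.11-fold below it for *S100a9*. On the background-corrected scale, *S100a8* minus *Hba-a1* was -4.99 on AAV-Cre replicate 3 and -1.14 on AAV-GFP replicate 4. These are single arrays, and no test of their difference can be made.

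Between the groups neither gene differed beyond the spread. *S100a8* averaged 8.22 ± 0.22 on arrays labelled AAV-Cre and 8.28 ± 0.97 on AAV-GFP arrays (SD, n = 6 each; difference -0.06, 95% interval -0.82 to 0.71, limma adjusted p = 1.00). *S100a9* differed by -0.19 (interval -0.96 to 0.58, limma adjusted p = 1.00). Both signs rested on AAV-GFP replicate 4, without which the differences were 0.34 (adjusted p = 0.567) and 0.20 (adjusted p = 1.00). Without AAV-Cre replicate 3 as well, *S100a8* lay between 8.06 and 8.41 on the other 5 arrays labelled AAV-Cre and between 7.79 and 7.98 on the other 5 AAV-GFP arrays (difference 0.27, adjusted p = 0.641), with 1 of these 10 values detected. *Camp* (ILMN_2766604) was detected on 1 array, AAV-GFP replicate 4, at 8.25, and averaged 7.90 ± 0.14 on arrays labelled AAV-Cre and 7.97 ± 0.17 on AAV-GFP arrays (SD, n = 6 each; difference -0.06, limma adjusted p = 1.00).

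*S100a8* and *S100a9* correlated at r = 0.974 over 12 arrays (permutation p = 0.00126, adjusted p = 0.00882; rho = 0.769), but at 0.374 without AAV-Cre replicate 3 and AAV-GFP replicate 4, so the relation rested on those 2 arrays. *S100a8* with *Hba-a1* gave r = 0.664 (permutation p = 0.0684, adjusted p = 0.113) and rho = 0.909 (permutation p = 0.00018, adjusted p = 0.00118). Without the same 2 arrays r was 0.717 and rho 0.855. Of the 12 *S100a8* levels only 3 were detected, and values below detection carry no order. With normexp background correction r was 0.706 (adjusted p = 0.0425). In all, 5 of 28 pairs had an adjusted Pearson p under 0.05 and 10 an adjusted Spearman p under 0.05.

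**Figure D3:**
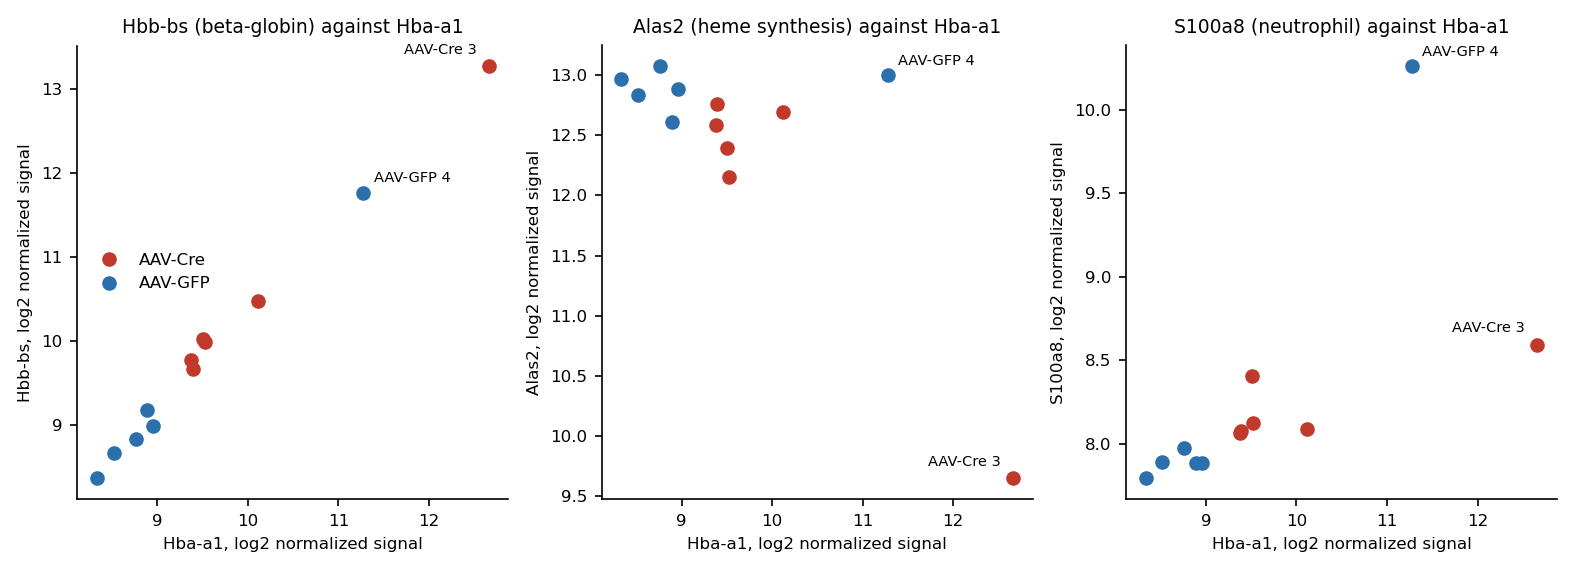
Log2 normalised signal of *Hbb-bs*, *Alas2* and *S100a8* (vertical axes) against that of *Hba-a1* (horizontal axes) on the 6 AAV-Cre and 6 AAV-GFP arrays. *Hbb-bs* follows *Hba-a1* on every array (r = 0.996), *Alas2* is lowest on AAV-Cre replicate 3, and *S100a8* is highest on AAV-GFP replicate 4.

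Other neutrophil genes gave the same array in part. Of 21 measured genes 0 were called (6 above 0, 15 below, median difference -0.04), and 9 were detected on no more than 2 arrays. Of the 21, 5 were highest on AAV-GFP replicate 4: *Ltf*, *Mmp9*, *Csf3r*, *Fpr2* and *Il1b*. *Ltf*, lactoferrin of the secondary granules, read 8.68 there and at most 8.17 elsewhere, and *Csf3r*, the receptor of the growth factor G-CSF, 8.83 there and at most 8.33 elsewhere. *Mpo*, which defines the primary granules, was at background on nearly all arrays (detected on 2). *Lcn2*, a granule protein that hepatocytes also secrete in the acute phase, was highest on AAV-Cre replicate 2, at 12.42.

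Among markers of other cell types, those of macrophages and lymphocytes were in part highest on AAV-GFP replicate 4 too. Of 15 Kupffer cell and macrophage genes 8 were highest on it, and the mean of the list ran from 8.25 to 8.89 on arrays labelled AAV-Cre and from 8.05 to 9.05 on AAV-GFP arrays, with 9.05 on AAV-GFP replicate 4 and 8.65 on AAV-Cre replicate 3. The Kupffer cell genes *Clec4f* (10.44 on AAV-GFP replicate 4) and *Vsig4* (10.43) reached 10.33 and 10.32 elsewhere, so that this array was not alone in macrophage signal. Of 5 B and T lymphocyte genes 4 were highest on AAV-GFP replicate 4, and 4 of the 5 were detected on no more than 2 arrays. The lymphocyte and antigen-presenting cell gene *Cd74* read 10.81 on AAV-Cre replicate 1 and 10.60 on AAV-GFP replicate 4. Of 12 endothelial genes 3 were highest on AAV-Cre replicate 3 and 3 on AAV-GFP replicate 4. Platelet genes were close to background, with 3 measured and mean levels of 8.04 to 8.21 on arrays labelled AAV-Cre and 7.97 to 8.21 on AAV-GFP arrays. The mean of the endothelial list was highest on AAV-Cre replicate 6, and that of the platelet list on AAV-GFP replicate 2. For the stellate cell, bile duct and natural killer cell lists it was highest on AAV-GFP replicate 6, AAV-Cre replicate 5 and AAV-GFP replicate 3. In all these lists 0 genes were called between the groups, and their part in the member levels was not tested.

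The 10 genes most like *S100a8* were *Pak1ip1*, *Gm382*, *Lhpp*, *Uap1l1*, *Clec2e*, *Mecr*, *Actn2*, *Vasp*, *Gm12185* and *H2ac22* (r from 0.80 to 0.90), all highest on AAV-GFP replicate 4. With the mean of the neutrophil members as reference, the 10 were *Pak1ip1*, *Gm382*, *Actn2*, *Lhpp*, *Pla2g4e*, *Mecr*, *Vasp*, *Stx6*, *Cyth4* and *Nmb*, again all highest on this array. *Cyth4*, an exchange factor of blood cells, and *Vasp*, an actin regulator, are used by leukocytes, while most of the others are not known as neutrophil genes. *Pak1ip1*, the first in both, spanned only 8.28 to 8.53. Without AAV-Cre replicate 3 and AAV-GFP replicate 4 the r of the 10 genes most like *S100a8* ran from 0.158 to 0.745.

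**Figure D4:**
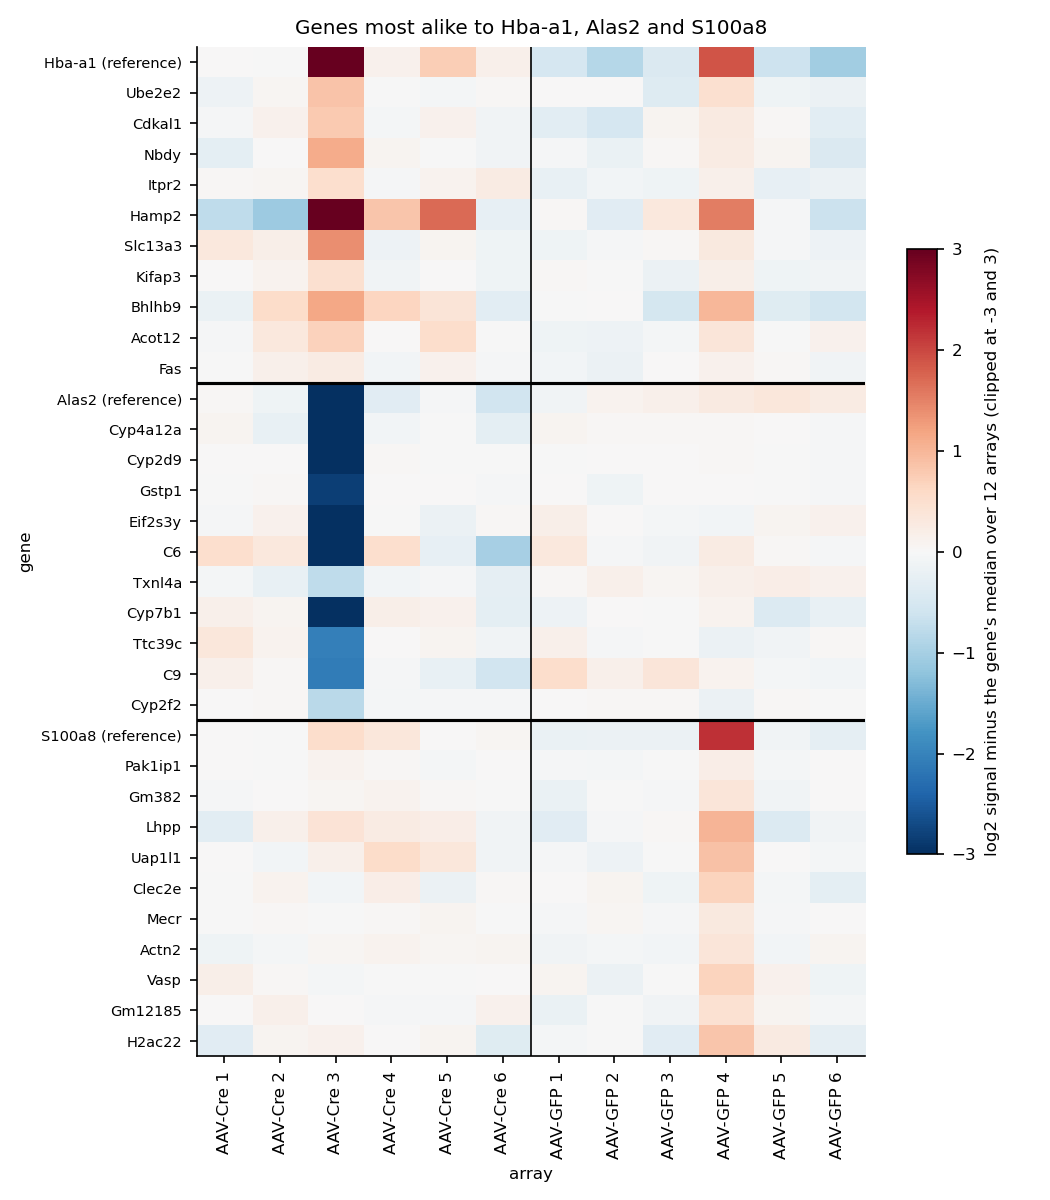
Log2 normalised signal minus the median of the gene over the 12 arrays (colour, clipped at -3 and 3) for *Hba-a1*, *Alas2* and *S100a8* and the 10 genes most like each (rows), on AAV-Cre arrays on the left and AAV-GFP arrays on the right (columns). The genes near *Hba-a1* are highest and those near *Alas2* lowest on AAV-Cre replicate 3, and those near *S100a8* are highest on AAV-GFP replicate 4.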

How the data were processed

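Hepatocyte RNA was hybridised to 12 Illumina MouseWG-6 v2 arrays. The authors exported from GenomeStudio an intensity per probe, background left in, with a detection p-value. A deposited table of intensity that the authors quantile-normalised and filtered (19627 of 45281 probes) served as an alternative. Here the exported intensity was quantile-normalised and put on the log2 scale, and probes with a detection p of at most 0.05 on 1 or more arrays were kept (20561). Background left in compresses folds of dim probes. Groups were compared with limma 3.58.1 (two-sided, Benjamini-Hochberg over all kept probes) and single probes by exact permutation. On simulated data with 20561 probes limma recovered 92 of 100 changes of 1 log2 unit and 99 of 100 of 2. The changed probes were drawn at random from all kept probes, each with its own spread. Only 0.238% of detected probes had a wider range than *Hba-a1*, so these rates do not hold for the globins.

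The most intense probe stood for a gene with several. Genes named are all members, the 10 genes most like each reference profile, and called genes or markers of the lists, some picked for their highest array after the values were seen. Members and lists were chosen with earlier results of these data known. Alternatives were median scaling, normexp, the deposited table, other detection filters, the replicate number as a block, and left-out arrays. Chip positions are unknown here. Precision is limited by having 6 arrays per group.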

Additional observations from a re-analysis of the deposited data

Results flagged for a closer look

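For each of the 16 probes in each group of 6 arrays, the gap between the most extreme array and its nearest neighbour was set against the range of the group. Of 32 such tests 23 exceeded Dixon's 95% critical value for groups of this size, 12 of them on AAV-Cre replicate 3 and 11 on AAV-GFP replicate 4, and 0 on any other array. Chance alone flags about 1 in 20 groups, and probes of 1 gene or of both globin chains share their source. The share of all detected probes that this rule flags was not computed, so the 23 have no background beside them. AAV-Cre replicate 3 was highest by at least 1 unit for 50 of all detected probes and lowest by as much for 38. For AAV-GFP replicate 4 these counts were 5 and 1.

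On AAV-Cre replicate 3 the gap ratio of the highest array was 0.775 for *Hba-a1*, 0.831, 0.884, 0.774, 0.821, 0.903 and 0.885 for the 6 *Hbb-bs* probes in the order ILMN_1223244, ILMN_1229203, ILMN_1244316, ILMN_1255462, ILMN_2544056 and ILMN_2545963, and 0.807, 0.848, 0.737 and 0.881 for the 4 *Hbb-bt* probes in the order ILMN_1216452, ILMN_1235372, ILMN_1236718 and ILMN_1239117. The same array was the lowest for *Alas2*, with a gap ratio of 0.806.

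On AAV-GFP replicate 4 the gap ratio of the highest array was 0.926 for *S100a8*, 0.972 for *S100a9*, 0.788 for *Hba-a1*, 0.781, 0.715, 0.759, 0.769, 0.756 and 0.691 for the 6 *Hbb-bs* probes in the same order, and 0.794 for *Hbb-bt* ILMN_1216452 and 0.756 for *Hbb-bt* ILMN_1236718.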

How the results depend on the processing

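The count of called member probes stayed at 0 under median scaling, normexp background correction, the value table, no detection filter, detection on at least 6 arrays, an adjusted p under 0.25 and the replicate block (lowest limma adjusted p of a member probe with the block 0.744). Leaving out any 1 array gave 0 to 0 calls. Without AAV-Cre replicate 3 and AAV-GFP replicate 4 together it was 3, all of *Hbb-bs*, an alternative chosen after the data were seen. These arrays were picked by globin level, so this count is not a test. The sign of a difference turned in 6 of 299 refits. Over single left-out arrays the difference ran from -0.023 to 0.36 for *Hbb-bt* ILMN_1235372 (turned without AAV-Cre replicate 3), and from -0.15 to 0.34 for *S100a8*, -0.30 to 0.20 for *S100a9* and -0.11 to 0.0077 for *Slc4a1* (all turned without AAV-GFP replicate 4). Without both arrays it was 0.27 for *S100a8* and 0.10 for *S100a9*. The highest array was the same under every scaling for 14 of 16 probes. The exceptions were *Alas2* and *Camp* in the exported signal before normalization. With median scaling 7 of the 10 genes most like *Hba-a1*, 8 for *Alas2*, 8 for *S100a8*, 7 for the erythroid mean and 6 for the neutrophil mean were kept. Under normexp or median scaling 12 pairs newly passed (14 of the refitted correlations) and the other 42 refits kept their call. Sample titles number the arrays of each group alike, but do not say that equal numbers are pairs. For fold changes by RT-qPCR the paper used a paired t test of AAV-Cre against AAV-GFP mice. Deviations of same-numbered arrays correlated at -0.20 to 0.40, over 0.1 in 4 of 6 pairs. Pairing is therefore possible but not stated, and the main fit left it out. Of the arrays labelled AAV-Cre, 4 of 6 correlated best with the AAV-GFP array of their own number, a hint of pairing from the data. Signals near background limit *Slc4a1*, *Camp* and most values of *S100a8* and *S100a9*.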
